A study of Rattus norvegicus with 9 samples.

Results

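Thrombospondins and other astrocyte synapse factors were followed in the lumbar spinal cord of rats with a nerve injury. The 10 genes were Thbs1, Thbs2, Thbs3 and Thbs4 (thrombospondins), Sparcl1 (hevin) and Sparc, the glypicans Gpc4 and Gpc6, and the engulfment receptors Megf10 and Mertk. They were chosen by name from the 34890 loci of the expression table, and each name matched exactly 1 locus. RNA of the ipsilateral L3-L6 segments was sequenced from male Sprague Dawley rats of WT genotype. The 9 samples formed 3 groups of 3. JA rats had a sham operation and received normal saline by mouth. SNI rats had a spared nerve injury, in which 2 branches of the sciatic nerve, the tibial and the common peroneal, are tied and cut while the sural branch is left, and also received saline. PLM rats had the same injury and received paeoniflorin at 20.65 mg/ml together with liquiritin, both plant glycosides. Liquiritin is labelled at 3.98 mg/ml for PLM replicate 1, and at 3.99 and 3.100 mg/ml for replicates 2 and 3. The study's methods give the whole PLM group the same dose, that of the label of replicate 1, so the other labels may be slips and are not taken as different doses. The age of the rats is not given in the sources used here. No group of uninjured rats given the drugs was analysed here, so effects of the drugs on injured and on intact cord cannot be told apart.

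Astrocytes secrete proteins that promote, mature or restrain synapses, and they also take synapses up. Thrombospondins start excitatory synapse formation through the calcium channel subunit α2δ-1 (Cacna2d1), the receptor of gabapentin and pregabalin, and nerve injury is known to raise Thbs4 in the spinal dorsal horn. Hevin links the sides of the synapse, in part through neuroligins, and promotes synapses, its relative Sparc opposes hevin, glypicans 4 and 6 recruit AMPA receptors, and Megf10 and Mertk act in the uptake of synapses by astrocytes, with Mertk also used by microglia.

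Levels are given in TPM (a value for transcripts scaled for transcript length and to the same total in each sample), so that levels of different genes can be set side by side. Differences are given in log2(TPM + 1), where the added 1 damps the change of genes near 1 TPM or below. They were tested with limma over all loci that averaged 1 TPM or more in the 6 samples compared, and a gene passed at a Benjamini-Hochberg adjusted p under 0.05 over all loci tested. The read depth is unknown, so counting error could not be given. Because TPM has a fixed total, many differences are also given after every sample was centred on its own median. Those given without a centred value are as deposited. Bulk tissue was measured, so fewer cells of a type and less RNA per cell cannot be told apart.

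Levels differed between the groups across the whole table, which bears on every value below. The 13 mitochondrial protein genes took 31.97% ± 0.768 of the total in PLM (SD, n = 3), 24.61% ± 1.303 in SNI and 29.1% ± 3.75 in JA. The median difference over all loci tested was -0.21 for PLM minus SNI, 0.12 for SNI minus JA and -0.10 for PLM minus JA. JA replicate 3, SNI replicate 2 and PLM replicate 3 stood apart in their groups by the summed level of 5 Schwann cell markers of peripheral nerve, at 6290.3, 3571.5 and 2635 TPM, against 60.6 to 1217 TPM in the other 6 samples.

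Of the 10 genes, Sparcl1 and Sparc were lower in PLM than in SNI beyond the test's threshold, and no gene passed between SNI and JA or between PLM and JA. Mean Sparcl1 was 49.4% lower in PLM than in SNI and mean Sparc 40.9% lower. Sparcl1 also passed after median-centring and Sparc did not. Of the 8 genes with enough signal for the test, 2 passed in PLM versus SNI, both lower, where 13.6% of all loci tested were called lower. After centring, 1 of 8 passed, against 0.685% of loci called lower. With the thresholds used in the study (unadjusted p under 0.05 and more than 1 log2 unit in either direction), 0 of 8 passed in PLM versus SNI, where 1.65% of loci did, and Sparcl1 fell just short of the fold threshold at -0.98. The study set them on DESeq2 results. Here they were set on limma differences in log2(TPM + 1), which are smaller for low genes, so these are not the calls of the study.

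**Figure D1:**
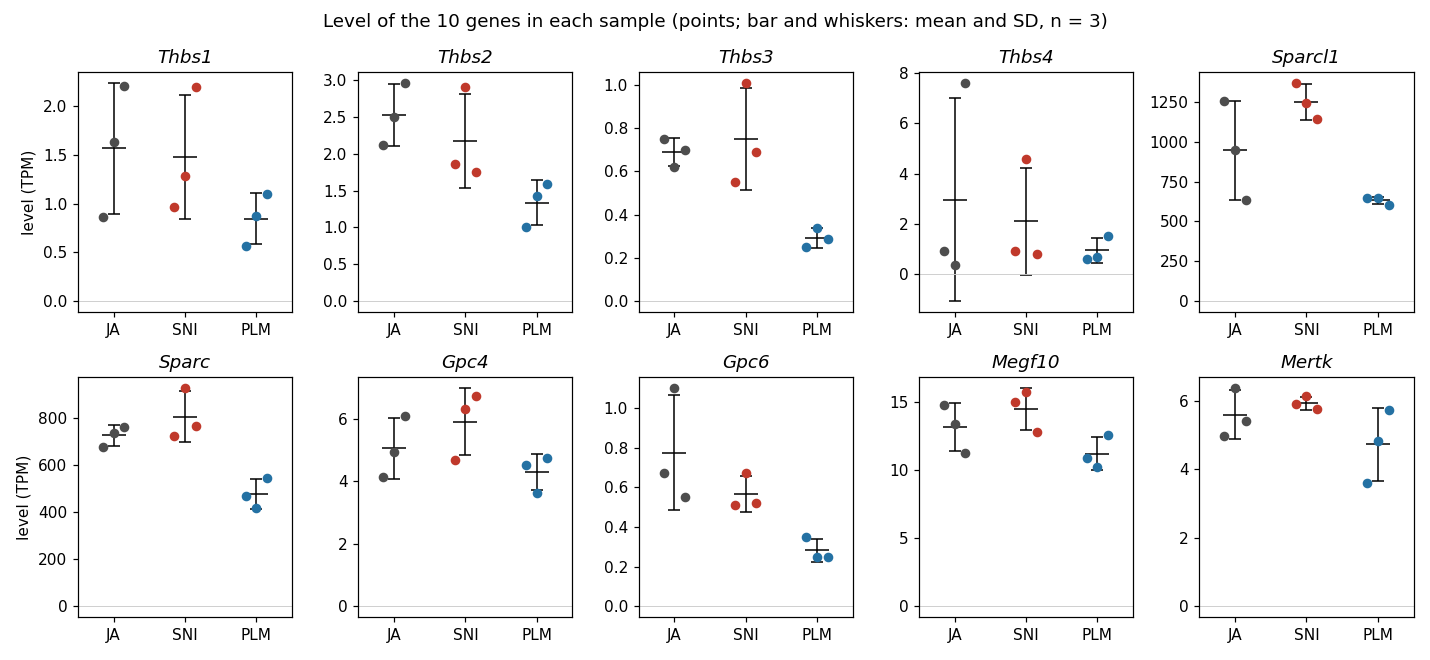
Level in TPM (vertical axes, each from 0 with its own scale, extended below 0 where an SD reaches there) of the 10 genes in JA, SNI and PLM, with 1 point per sample, a bar for the mean and whiskers for the SD (n = 3). The 3 PLM points lie below the 3 SNI points for 7 of the 10 genes, among them Sparcl1 and Sparc, as they do for 20% of all 34890 loci, and the Thbs4 means in JA and SNI rest on 1 high sample each.

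Sparcl1 was the most abundant of the 10 genes and ranked 106 of 34890 loci by mean TPM. Its level was 1255, 947 and 636 TPM in JA replicates 1, 2 and 3, 1368, 1239.8 and 1142 TPM in SNI, and 646, 646 and 605 TPM in PLM. All PLM samples were below all SNI samples, and JA spanned nearly the whole distance between them, with JA replicate 3 inside the PLM range. The group means were 945.7 ± 309.5, 1249.9 ± 113.8 and 632 ± 23.6 TPM (SD, n = 3 each). PLM minus SNI was -0.98 with a standard error of 0.08 and a 95% interval of -1.17 to -0.79 (limma, adjusted p = 0.00477). After centring it was -0.73, with an interval of -0.94 to -0.52 (limma, adjusted p = 0.0294). With the mitochondrial protein genes taken out of the total it was -0.83 (limma, adjusted p = 0.0138). Without PLM replicate 3 and SNI replicate 2, the libraries highest in Schwann cell markers, it was -0.95 with 2 samples a group (limma, adjusted p = 0.0670). Of the 7 genes then tested 0 passed, where 12 of 15345 loci did (0.0782%). At an unadjusted p under 0.05 (limma) there were 3 of the 7 genes and 5219 of the 15345 loci. SNI minus JA was 0.45 with an interval of -0.11 to 1.01 (limma, adjusted p = 0.614), so neither a near doubling nor no change was outside the interval.

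Sparc, a collagen-binding matricellular protein that endothelial and meningeal cells also make, ranked 167 of the 34890 loci. It was 676, 736 and 762 TPM in JA, 724, 925 and 763 TPM in SNI, and 466, 416 and 543 TPM in PLM. The highest PLM sample lay below every sample of both other groups, and JA and SNI overlapped. In each group the sample highest in Sparc was also the one highest in Schwann cell and in meningeal and fibroblast markers. These were JA replicate 3, SNI replicate 2 and PLM replicate 3, and the part of peripheral tissue in the Sparc values was not tested. Group means were 725 ± 44.1 TPM in JA, 804 ± 107 in SNI and 475 ± 63.8 in PLM. PLM minus SNI was -0.76 with a standard error of 0.13 and an interval of -1.07 to -0.45 (limma, adjusted p = 0.0227). It did not pass after centring, at -0.51 with an interval of -0.83 to -0.19 (limma, adjusted p = 0.147), nor with the mitochondrial protein genes taken out, at -0.61 (limma, adjusted p = 0.0955). Without both libraries highest in Schwann cell markers it was -0.75 (limma, adjusted p = 0.0670). Leaving out PLM replicate 1, PLM replicate 2, SNI replicate 1 or SNI replicate 3 also put the adjusted p above 0.05, between 0.0559 and 0.0866, at -0.83 to -0.67. PLM minus JA was -0.62 with an interval of -0.88 to -0.35 (limma, unadjusted p = 0.00108, adjusted p = 0.254).

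**Figure D2:**
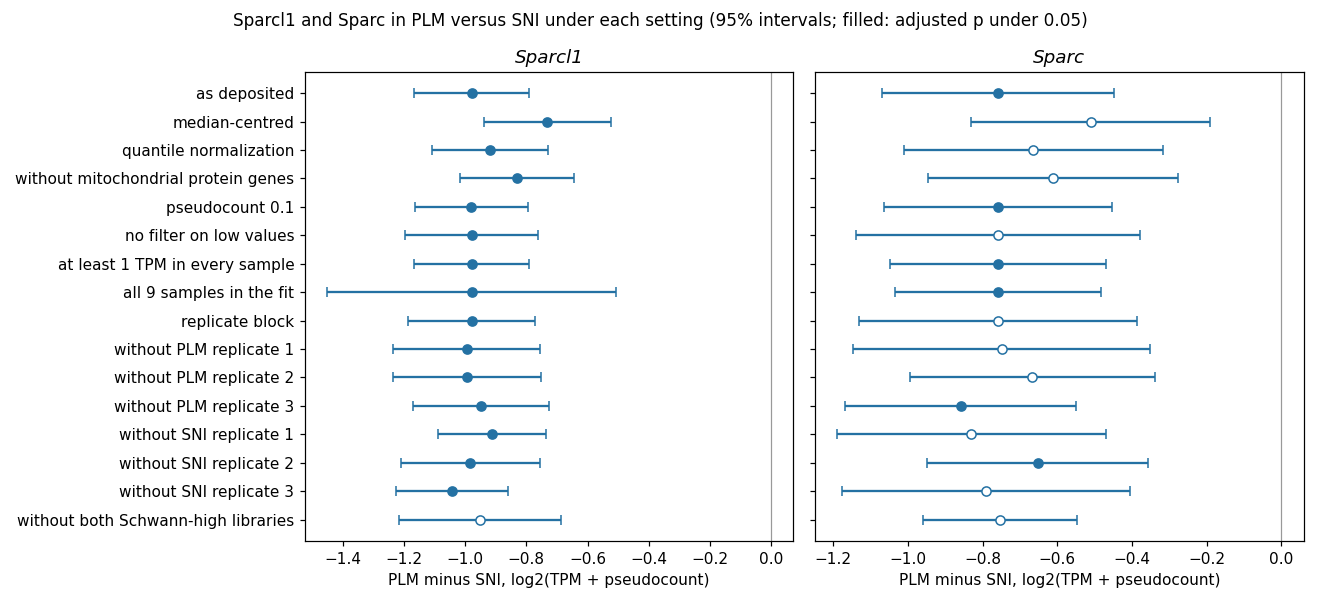
PLM minus SNI for Sparcl1 and Sparc on the log2 scale (horizontal axes) under each processing choice (rows), as points with 95% intervals, filled where the adjusted p was under 0.05. Sparcl1 lies between -1.04 and -0.73 and Sparc between -0.86 and -0.51 in all rows, and the bottom row, which leaves out the library of each group highest in Schwann cell markers, is open for both.

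The sequences just upstream of the start sites of Sparcl1 and Sparc are shown because these are the genes that passed. They are the 250 bases before the start of each gene in RefSeq, 5′ to 3′ on the strand of the gene, in build GRCr8. Sparcl1 lies on the plus strand at chr14:5937234-5937483 and Sparc on the minus strand at chr10:40038817-40039066. Capitals mark TTGGC on either strand, the letters bound by nuclear factor I, which acts in astrocyte development.
Sparcl1: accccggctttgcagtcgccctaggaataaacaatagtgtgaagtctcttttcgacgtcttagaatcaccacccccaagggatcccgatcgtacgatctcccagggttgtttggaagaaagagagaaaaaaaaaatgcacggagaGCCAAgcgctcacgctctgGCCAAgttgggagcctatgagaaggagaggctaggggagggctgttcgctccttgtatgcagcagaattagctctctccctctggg
Sparc: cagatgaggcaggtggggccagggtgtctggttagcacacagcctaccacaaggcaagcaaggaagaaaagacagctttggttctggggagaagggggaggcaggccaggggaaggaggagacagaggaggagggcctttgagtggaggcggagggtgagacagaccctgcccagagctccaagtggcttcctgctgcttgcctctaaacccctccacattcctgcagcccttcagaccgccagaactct

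The Sparcl1 window held 2 matches to TTGGC and the Sparc window held 0. Of the 10 genes, 7 had an entry in the RefSeq promoter table (Thbs1, Thbs3, Thbs4, Sparcl1, Sparc, Gpc4 and Mertk), and 5 of these 7 windows held TTGGC, as did 40.3% of the 27457 windows of the same length. The palindrome TTCNNNGAA, bound by STAT factors, was in 1 of the 7 windows (Thbs1) and in 7.52% of all windows. Neither TGANTCA, the letters of AP-1, nor TATAAA, the TATA box, was in any of the 7, against 6.36% and 13.1% of all windows. Both strands were searched, and a match or its absence describes letters only. The share of G and C was 52.4% in the Sparcl1 window and 60.0% in the Sparc window, against a median of 52.0% over all windows. There were 11 CpG pairs in the Sparcl1 window and 2 in that of Sparc, against a median of 6.

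Astrocyte markers were lower in PLM than in SNI together with Sparcl1 and Sparc. Of 16 astrocyte markers, 15 passed and all 15 were lower in PLM (median -1.28), and 10 passed after centring (median -1.04). Over all loci tested 13.6% were lower as deposited and 0.685% after centring, with medians of -0.21 and 0.04. Their summed level was 4072 to 4712 TPM in PLM, 7324 to 8615 TPM in SNI and 5193 to 8368 TPM in JA, and none of them was at 0. Gfap, the astrocyte intermediate filament, was 241 ± 22.1 TPM in PLM, 588 ± 28.3 TPM in SNI and 607 ± 202 TPM in JA. For Gfap PLM minus SNI was -1.28 (limma, adjusted p = 0.00396) and SNI minus JA was 0.02 (limma, adjusted p = 0.983). Of the 16 markers 0 passed in SNI versus JA (limma, 0 at an unadjusted p under 0.05). In PLM versus JA 0 passed (limma, 11 at an unadjusted p under 0.05, all lower in PLM), where 11.8% of loci had such a p. The JA sample lowest in Sparcl1, replicate 3, was also the JA sample with the lowest astrocyte sum. Set against the mean log2 level of the 16 markers in the same sample, Sparcl1 stood 3.46 ± 0.09 above it in PLM, 3.18 ± 0.08 above it in SNI and 3.15 ± 0.09 above it in JA (SD, n = 3), so Sparcl1 differed less between PLM and SNI than the average marker did. On the same measure Sparc stood 3.04 ± 0.29 above the markers in PLM and 2.54 ± 0.19 above them in SNI. The part of astrocyte number in the lower Sparcl1 and Sparc was not tested.

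Markers of other cell types were counted in the same way, and those called lower are to be read against the same shares of 13.6% and 0.685%. Of all 15474 loci, 38 were called higher as deposited and 20 after centring. Counts at an unadjusted p under 0.05 are to be read against 5739 of 15474 loci as deposited and 2621 after centring (limma, either direction). Of 9 endothelial markers 0 passed as deposited (limma, 2 at an unadjusted p under 0.05, Cldn5 and Tie1, both with the higher mean in PLM), and after centring Tie1 was higher (0.56, limma, adjusted p = 0.0357). After centring 6 of the 9 had an unadjusted p under 0.05 (limma), all with the higher mean in PLM. The summed level of the 9 endothelial markers was 415 to 466 TPM in PLM and 380 to 410.5 TPM in SNI. Of 9 meningeal and fibroblast markers, 2 were lower in PLM, Igf2 (-0.68, limma, adjusted p = 0.0275) and Slc6a13 (-0.55, limma, adjusted p = 0.0423), and 0 passed after centring (limma, 2 at an unadjusted p under 0.05, both with the lower mean in PLM). Their sum was 77.8 to 147 TPM in PLM, 114 to 278 TPM in SNI and 161 to 386 TPM in JA. Of 10 microglia markers 1 was lower in PLM as deposited (Tmem119, -0.43, limma, adjusted p = 0.0379) and 0 after centring (limma, 7 at an unadjusted p under 0.05, of which 6 had the higher mean in PLM), with sums of 227 to 253 TPM in PLM and 222 to 249.5 TPM in SNI. No marker of neurons or oligodendrocytes passed, with 10 tested for each (limma, 3 and 2 at an unadjusted p under 0.05, all 3 neuron markers with the lower mean in PLM and the oligodendrocyte markers 1 in each direction). Nor did any of 5 Schwann cell markers (limma, 0 at an unadjusted p under 0.05) or 3 blood and platelet markers (limma, 1 at an unadjusted p under 0.05, with the higher mean in PLM). After centring, 1 neuron, 5 oligodendrocyte, 0 Schwann cell and 2 blood and platelet markers had an unadjusted p under 0.05 (limma). All of these had the higher mean in PLM.

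Ahcyl1 and Fam151a were among the 3 genes whose pattern over the 9 samples was most like that of Sparcl1, of 9055 named genes with a mean of at least 5 TPM. Pearson's r on centred values was 0.993 for both, and the 9 points share the 3 groups and their libraries. Ahcyl1, which binds the inositol trisphosphate receptor, was 107 ± 25.1 TPM in JA, 138.5 ± 9.21 in SNI and 82.5 ± 0.707 in PLM. For Sparc the closest genes were Nbl1, Ttc13 and Cat, with r of 0.959, 0.947 and 0.935. Nbl1, a secreted BMP antagonist, was 52.1 ± 2.31 TPM in JA, 52.8 ± 8.47 in SNI and 29.6 ± 3.77 in PLM. These genes were picked for their likeness, so their group levels are a description.

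Thrombospondins were low in every group, and none of the 3 that could be tested passed in any comparison. Thbs2 was 2.12, 2.49 and 2.96 TPM in JA, 1.86, 2.90 and 1.75 TPM in SNI, and 1.00, 1.42 and 1.59 TPM in PLM. The PLM samples lay below all samples of both other groups, which overlapped. PLM minus SNI was -0.43 with an interval of -0.90 to 0.04 (limma, adjusted p = 0.158), and PLM minus JA was -0.59 with an interval of -1.01 to -0.18 (limma, unadjusted p = 0.0118, adjusted p = 0.346). After centring these were -0.18 (limma, adjusted p = 0.66) and -0.47 (limma, adjusted p = 0.494). Thbs1, which also activates latent TGF-β, was 0.86, 1.63 and 2.20 TPM in JA, 0.96, 1.28 and 2.19 TPM in SNI, and 0.57, 0.87 and 1.10 TPM in PLM. All 3 groups overlapped. The difference of PLM from SNI was -0.40 for Thbs1, with an interval of -0.97 to 0.16 (limma, adjusted p = 0.251), and -0.16 after centring (limma, adjusted p = 0.779).

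Thbs3 was below 1 TPM on average in each pair of groups, so it was left out of the test. It was 0.75, 0.62 and 0.70 TPM in JA, 0.55, 1.01 and 0.69 TPM in SNI, and 0.25, 0.34 and 0.29 TPM in PLM. Every PLM sample was below every JA and SNI sample, and the PLM mean was 60.9% below that of SNI, the widest gap in percent among the 10 genes. With no filter on low values, PLM minus SNI was -0.43 with an interval of -0.71 to -0.15 (limma, adjusted p = 0.141).

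Thbs4, the thrombospondin most tied to nerve injury, varied more between samples of a group than between groups. It was 0.92, 0.37 and 7.61 TPM in JA, 0.94, 4.57 and 0.80 TPM in SNI, and 0.63, 0.71 and 1.53 TPM in PLM. Its highest sample was 20.6 times its lowest, against 1.54 to 4.40 times for the other 9 genes. In each group the highest sample was the one with the highest sums of Schwann cell markers (6290.3, 3571.5 and 2635 TPM) and of meningeal and fibroblast markers (386, 278 and 147 TPM). This was not particular to Thbs4, since the same samples were also the highest of their groups for Sparc and Thbs2. JA replicate 2, which had the lowest Thbs4 of all samples, also had the lowest Schwann cell sum, at 60.6 TPM. SNI minus JA was -0.07 for Thbs4 with an interval of -1.89 to 1.74 (limma, adjusted p = 0.971), and the difference was 0.73 without JA replicate 3 (limma, adjusted p = 0.836). The interval covers wide ranges on both sides of 0, and the part of peripheral tissue in the Thbs4 values was not tested.

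**Figure D3:**
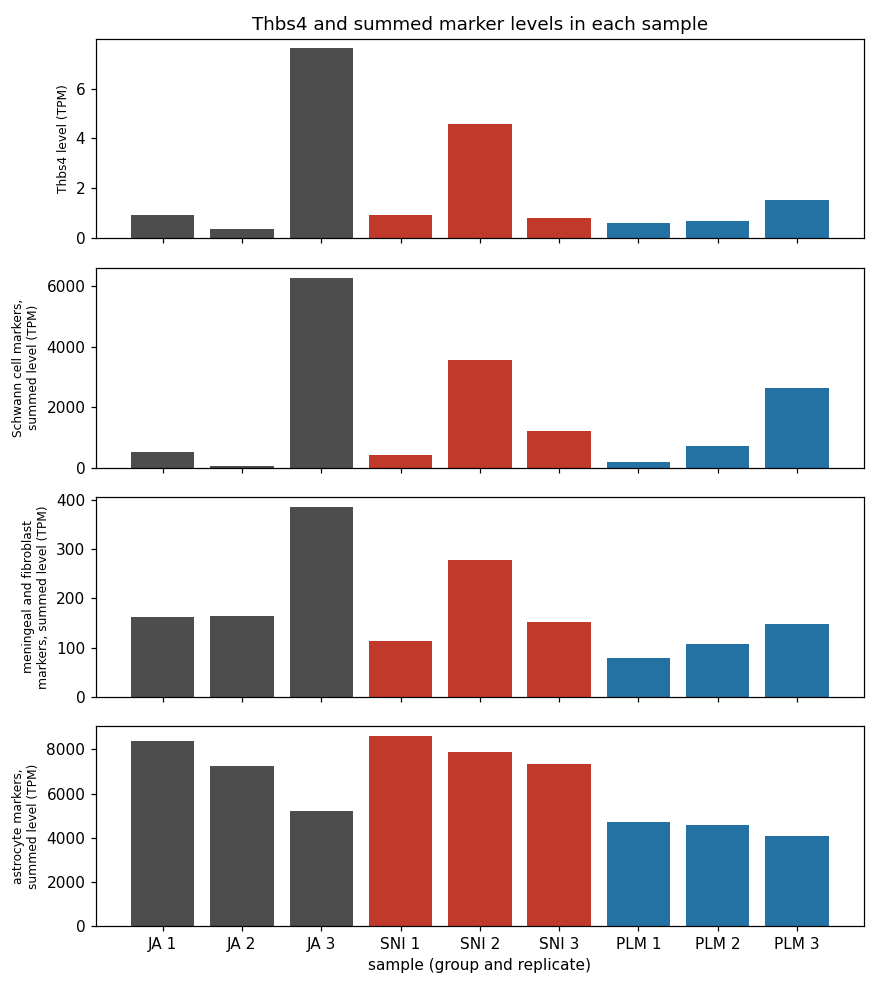
Level of Thbs4 and summed levels of Schwann cell, meningeal and fibroblast, and astrocyte markers in each sample, in TPM, as bars from 0 with 1 bar per sample. The highest Thbs4 bars, 7.61 TPM in JA replicate 3 and 4.57 TPM in SNI replicate 2, stand over the highest Schwann cell and meningeal sums, while the astrocyte sum is lowest in the 3 PLM samples.

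The glypicans are heparan sulfate proteoglycans held on the membrane by a lipid anchor and shed from astrocytes. Gpc4 was 4.15, 4.93 and 6.09 TPM in JA, 4.69, 6.32 and 6.72 TPM in SNI, and 4.52, 3.63 and 4.74 TPM in PLM, and all groups overlapped. For Gpc4 PLM minus SNI was -0.38 with an interval of -0.74 to -0.01 (limma, adjusted p = 0.125) and -0.13 after centring, with an interval of -0.52 to 0.26. Gpc6 was 0.67, 1.10 and 0.55 TPM in JA, 0.51, 0.67 and 0.52 TPM in SNI, and 0.35, 0.25 and 0.25 TPM in PLM. The PLM samples were below all others, at 50.0% below the SNI mean, but Gpc6 was under the filter. With no filter, PLM minus SNI was -0.29 with an interval of -0.43 to -0.14 (limma, adjusted p = 0.0931).

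The engulfment receptors passed in no comparison. Megf10 was 14.8, 13.4 and 11.3 TPM in JA, 14.97, 15.7 and 12.8 TPM in SNI, and 10.8, 10.2 and 12.5 TPM in PLM. PLM did not overlap SNI, by 0.21 TPM between the nearest samples, and the means were 22.7% apart. For Megf10 PLM minus SNI was -0.34 with an interval of -0.61 to -0.08 (limma, adjusted p = 0.0795), and -0.10 after centring, with an interval of -0.33 to 0.14 (limma, adjusted p = 0.671). Mertk was 4.98, 6.37 and 5.41 TPM in JA, 5.91, 6.13 and 5.75 TPM in SNI, and 3.60, 4.84 and 5.74 TPM in PLM. The highest PLM sample was 0.01 TPM below the lowest SNI sample, so the separation was as thin as the rounding of the table. For Mertk PLM minus SNI was -0.29 with an interval of -0.65 to 0.06 (limma, adjusted p = 0.195), and -0.05 after centring, with an interval of -0.34 to 0.25. Against the astrocyte markers of the same sample, Megf10 stood at -2.24 ± 0.25 on the log2 scale in PLM and -3.16 ± 0.03 in SNI, so it was lower by less than those markers were.

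Counted over the 10 genes, the PLM samples all lay below the SNI samples for 7 (Thbs2, Thbs3, Sparcl1, Sparc, Gpc6, Megf10 and Mertk), as they did for 20% of all 34890 loci. Of the 8 tested genes, 5 were separated in this way, as were 41.9% of the loci tested. After centring, 2 of 8 were, against 9.73% of loci. Between PLM and JA, 4 of the 10 (Thbs2, Thbs3, Sparc and Gpc6) had every PLM sample lower, where 7.87% of all loci did. Of the 8 tested genes these were 2, Thbs2 and Sparc, where 15.7% of the loci tested were separated in this way. An exact permutation test of 3 against 3 samples cannot give a two-sided p below 0.10, so these separations carry no p of their own. Between SNI and JA, 0 of the 10 separated in either direction, where 1.15% of all loci were lower and 6.12% higher in SNI. The median difference of the 8 tested genes was -0.42 in PLM minus SNI against -0.21 over all loci tested, and -0.17 against 0.04 after centring.

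Injury alone moved none of the 10 genes past the threshold. In SNI versus JA 0 of 8 passed (limma, 0 at an unadjusted p under 0.05), where 0% of 15557 loci passed and 7.1% had an unadjusted p under 0.05. The differences ran from -0.16 for Thbs2 to 0.45 for Sparcl1, with a median of 0.11 against 0.12 over all loci. For Sparc the interval was -0.13 to 0.41, for Megf10 -0.18 to 0.45 and for Mertk -0.20 to 0.36, so larger changes of these 3 genes lay outside the intervals. In PLM versus JA 0 of 8 passed (limma, 2 at an unadjusted p under 0.05, Sparc and Thbs2), where 0.0195% of 15349 loci passed and 11.8% had an unadjusted p under 0.05. All 8 differences were below 0 there, as were 71.2% of all loci tested, and Sparcl1 was at -0.53 with an interval of -1.07 to 0.02 (limma, adjusted p = 0.441). The comparisons share the SNI or the JA samples, so their values for a gene are not independent of each other.

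**Figure D4:**
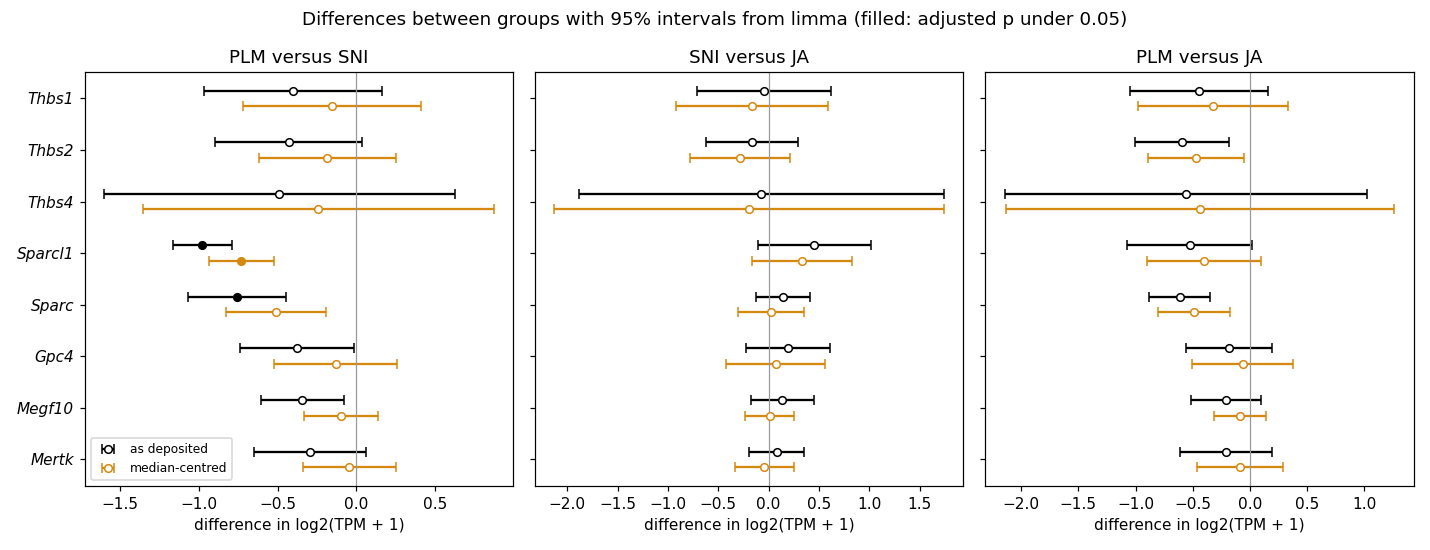
Differences in log2(TPM + 1) (horizontal axes, each panel with its own scale) for the 8 tested genes in the 3 comparisons, as deposited in black and median-centred in orange, with 95% intervals from limma and filled points where the adjusted p was under 0.05. Thbs3 and Gpc6 were under the filter and are not drawn. Sparcl1 (both scales) and Sparc (as deposited) in PLM versus SNI are filled, and the widest intervals are those of Thbs4.

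Of 23 tested receptors and partners of these factors, 6 were lower in PLM than in SNI as deposited, against 13.6% of all loci, and 17 did not pass. After centring 1 passed, against 0.685% of all loci. That was Lrp1, the endocytic receptor that clears thrombospondins, at 13.9 ± 0.605 TPM in PLM and 25.9 ± 2.64 in SNI, a difference of -0.85 (limma, adjusted p = 0.00686) and -0.60 after centring (limma, adjusted p = 0.0321). Calr, the calreticulin that binds thrombospondin with Lrp1, fell by 0.39 (limma, adjusted p = 0.0128) and was at -0.14 after centring (limma, adjusted p = 0.365). The glypican receptor Ptprs fell by 0.39 (limma, adjusted p = 0.0395) and its relative Ptprf by 0.56 (limma, adjusted p = 0.0336). After centring they were at -0.14 (limma, adjusted p = 0.435) and -0.32 (limma, adjusted p = 0.171). Of the neuroligins, Nlgn3 fell by 0.40 (limma, adjusted p = 0.0418), from 17.4 ± 2.01 to 12.9 ± 0.505 TPM, and was at -0.15 after centring (limma, adjusted p = 0.38). Nlgn2 was at -0.34 (limma, adjusted p = 0.073) and Nlgn1, a hevin partner, at -0.29 (limma, adjusted p = 0.205). Differences between these genes were not tested. Cacna2d1, the thrombospondin receptor, was 4.97 ± 0.444 TPM in JA, 5.61 ± 0.366 in SNI and 4.72 ± 0.224 in PLM. It did not pass, at -0.21 with an interval of -0.42 to 0.004 (limma, adjusted p = 0.140), and was at 0.04 after centring with an interval of -0.14 to 0.22. Cd47, another thrombospondin receptor, was at -0.18 (limma, adjusted p = 0.185). The median of the 23 was -0.34 as deposited and -0.10 after centring, against -0.21 and 0.04 over all loci.

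Among 11 tested relatives of the 10 genes 5 were lower in PLM than in SNI as deposited (median -0.49) and 1 after centring (median -0.25). Over all loci tested 13.6% were lower as deposited and 0.685% after centring, with medians of -0.21 and 0.04. Smoc1, a Sparc relative, was 3.91 ± 0.320 TPM in PLM and 7.29 ± 0.428 in SNI, at -0.76 (limma, adjusted p = 0.00991) and -0.51 after centring (limma, adjusted p = 0.0487). Axl, a sister receptor of Mertk, was 5.76 ± 0.675 TPM in PLM and 10.9 ± 0.767 in SNI, at -0.82 (limma, adjusted p = 0.00999) and -0.58 after centring (limma, adjusted p = 0.0635). Axl thus passed as deposited and Mertk did not, and the difference between these genes was not tested. Fstl1, another Sparc relative, fell by 0.67 (limma, adjusted p = 0.0220), and the glypican Gpc1 by 0.49 (limma, adjusted p = 0.0417). After centring they were at -0.42 (limma, adjusted p = 0.121) and -0.25 (limma, adjusted p = 0.317).

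Of 16 other astrocyte and matrix factors that act on synapses, 6 were lower in PLM than in SNI (median -0.44) and 2 after centring (median -0.19), against 13.6% and 0.685% of all loci tested. Bcan, the brevican of perineuronal nets, was 30.8 ± 2.11 TPM in PLM and 97.0 ± 15.6 in SNI, at -1.61 (limma, adjusted p = 0.00477) and -1.37 after centring (limma, adjusted p = 0.0263). Lgi1, a secreted ligand at excitatory synapses, was 14.6 ± 0.691 TPM in PLM and 24.2 ± 1.68 in SNI, at -0.69 (limma, adjusted p = 0.00786) and -0.45 after centring (limma, adjusted p = 0.0443). Neurocan (Ncan) fell by 0.95 (limma, adjusted p = 0.0197) and tenascin C (Tnc) by 0.71 (limma, adjusted p = 0.0263), and neither passed after centring.

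In the engulfment pathway of Megf10 and Mertk, 2 of 16 tested genes passed as lower in PLM, a share close to the 13.6% of all loci. They were Itgb5, an integrin subunit (-0.32, limma, adjusted p = 0.0428), and Elmo1, which activates Rac (-0.24, limma, adjusted p = 0.0428). After centring 0 of 16 passed (limma, 2 at an unadjusted p under 0.05, both with the higher mean in PLM), and the median was -0.30 as deposited and -0.06 centred. Over all loci tested, 2621 of 15474 had an unadjusted p under 0.05 after centring (limma). Gas6, the ligand of Mertk and Axl, was 116 ± 12.3 TPM in SNI and 93.4 ± 2.35 TPM in PLM, at -0.31 (limma, adjusted p = 0.0603), and the related ligand Pros1 was at -0.37 (limma, adjusted p = 0.167). None of the 4 lists had a gene that passed in SNI versus JA or in PLM versus JA, where 0% and 0.0195% of all loci did. Counts at an unadjusted p under 0.05 (limma) follow, with the lists in the order given here. SNI versus JA had 3 of 23, 1 of 11, 4 of 16 and 2 of 16, against 7.1% of all loci. PLM versus JA had 2 of 23, 3 of 11, 4 of 15 and 1 of 16, against 11.8%.

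**Figure D5:**
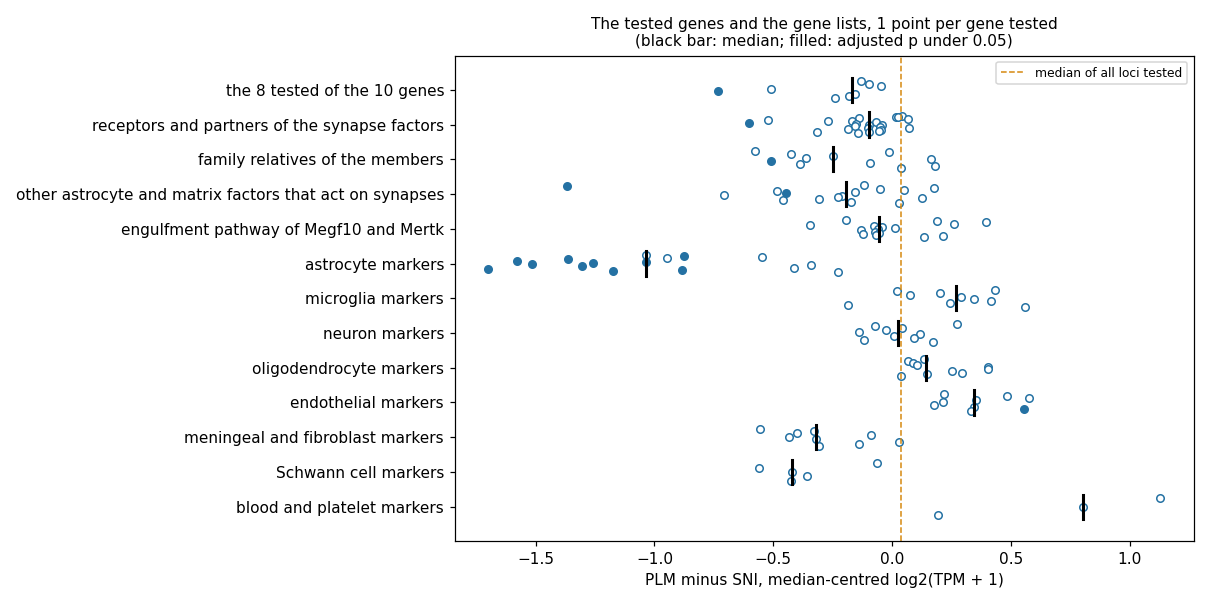
PLM minus SNI on median-centred log2(TPM + 1) values (horizontal axis) for the tested genes among the 10, the 4 lists around them and 8 lists of cell type markers (rows), with 1 point per tested gene, a black bar for the median and filled points where the adjusted p was under 0.05. Astrocyte markers lie farthest to the left with a median of -1.04, the 8 tested of the 10 genes have a median of -0.17, and the dashed line marks the median of all loci at 0.04.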

How the data were processed

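Per the study's methods, adaptors and low-quality reads were taken out by the authors (the submitters' processing notes list fastp 0.19.5), who then used HISAT2 for mapping and StringTie for expression. The deposited table holds TPM values, which were not normalized further. The notes list the build GRCh38.p13, a human assembly, while the identifiers are those of rat genes, so the build is unclear and no coordinates of the table were used. The unit was read from the values, since each column sums to 1000000 within rounding, so depth and counting error are unknown and no count test was run. Promoters came from RefSeq (GRCr8).

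Groups were compared in pairs with limma 3.58.1 in R 4.3.3, with a variance trend, on log2(TPM + 1) for loci averaging 1 TPM or more in the 6 samples of a pair, with Benjamini-Hochberg adjustment over all loci tested. The labels call the samples biological replicates, and n = 3 limits each test. The fit was also run on simulated data with independent noise, some genes raised and no shift over the whole table. It therefore does not bear on the effect of such a shift here. The 10 genes, the 4 lists around them and the 8 marker lists (astrocyte, microglia, neuron, oligodendrocyte, endothelial, meningeal and fibroblast, Schwann cell, blood and platelet) were chosen with earlier results of these data known. All 10 genes were named. From each list around them, up to 4 genes that passed in PLM versus SNI with the smallest p were named, with Cacna2d1, Nlgn1, Cd47, Ptprs, Gas6, Pros1 and Axl in any case, and for each gene that passed the 3 most alike by Pearson's r among genes without a provisional symbol. Some genes that this rule names are not reported here. Nlgn2, Nlgn3 and the marker genes were named after their values were seen. Alternatives were median-centring, quantile normalization, TPM rescaled without the 13 mitochondrial protein genes, a pseudocount of 0.1, no filter, at least 1 TPM in every sample, all 9 samples in the fit, the replicate number as a block, each sample left out and, chosen after seeing the data, the library of each group highest in Schwann cell markers left out.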

Additional observations from a re-analysis of the deposited data

How the results depend on the processing

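Of the 10 genes, 2 passed in PLM versus SNI (Sparcl1 and Sparc). Only Sparcl1 passed, a count of 1, under median-centring, quantile normalization, rescaling of TPM without mitochondrial protein genes, and no filter. The count was 1 to 2 with each sample left out, and 0 with the study's thresholds. It was 0 without SNI replicate 2 and PLM replicate 3, the libraries highest in Schwann cell markers, where both genes had an adjusted p of 0.0670 (limma) at -0.95 and -0.75 and only 12 of all loci passed. The cause was not tested. Sparcl1 passed in 14 of 15 alternatives and Sparc in 5 of 15. In SNI versus JA and in PLM versus JA the count was 0 under every alternative listed.

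With the replicate number as a block the count in PLM versus SNI was 1 (Sparc at a limma adjusted p of 0.101) and that of all loci was 152. Same-numbered PLM and SNI samples did not deviate together (correlations of 0.033, -0.022 and -0.008 over loci), so the numbers are not taken to pair the samples.

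Calls over all loci in PLM versus SNI numbered 2148 as deposited (2110 lower, 38 higher), 126 median-centred (106 lower, 20 higher), 155 with quantile normalization (132 lower, 23 higher), 283 without the mitochondrial protein genes, 617 with no filter, 486 with all 9 samples and 275 to 1494 with each sample left out.

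Of 353 recomputed differences of single genes, 332 kept their direction and side of the threshold, 11 lost the threshold and 10 turned direction, all in SNI versus JA with no gene past the threshold. Thbs4 was at 0.081 with a pseudocount of 0.1 and ran from -0.60 to 0.73 with each sample left out (0.73 without JA replicate 3, 0.16 without SNI replicate 1, 0.22 without SNI replicate 3). Thbs1 ran from -0.26 to 0.13 (0.13 without JA replicate 3, 0.11 without SNI replicate 1) and was at 0.18 without the libraries highest in Schwann cell markers, where Megf10 was at -0.02. Mertk was at -0.043 median-centred and -0.037 with quantile normalization. TPM gives no depth, so the limit on low genes such as Thbs3 and Gpc6 is unknown, and 3 samples per group limit every interval.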
